A study of Mus musculus with 10 samples.

Results

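BMP targets and Id genes were described by 6 genes of the BMP (bone morphogenetic protein) pathway: the ligand Bmp4, the receptor Bmpr1a, the inhibitor Smad6 and the targets Id1, Id2 and Id3. They were taken by gene symbol from the 40779 transcribed units (TUs) in which the authors counted fragments, each a stretch of 1 strand with signal from new transcripts. Each gene had 1 TU, and all 6 were among the 28459 TUs tested. Nascent RNA was measured by TT_chem-seq, in which RNA made during a short pulse of 4-thiouridine (4SU) is captured and sequenced. The cells were mouse embryonic stem cells (ESCs) of the E14 line with the genotype SOX2-FKBP, in which both copies of SOX2 carry a degron tag that directs the protein to degradation when dTAG-13 is given. The 10 libraries formed 5 groups of 2 replicates. Controls (NT, not treated) received DMSO, and the other groups received 500 nM dTAG-13 for 0.5, 1, 2 or 6 hours (hours post depletion, hpd). All groups grew without serum in medium with LIF, the MEK inhibitor PD0325901 and the GSK3-β inhibitor CHIR99021, and the labels name no added BMP. Homozygous clones were used according to the methods, but how many clones or cultures the libraries came from is not stated. Untagged cells given dTAG-13 were not analysed here, so that loss of SOX2 and other effects of the compound cannot be told apart.

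BMP ligands bind pairs of type I and type II receptor kinases at the cell surface, which phosphorylate SMAD1, SMAD5 and SMAD9. These SMADs enter the nucleus with SMAD4 and activate targets, among which the Id genes are the best known. ID proteins are helix-loop-helix proteins without a DNA-binding region. They pair with E proteins and keep them from forming active dimers with lineage factors. SMAD6 is itself induced by BMP and blocks the receptors, so that it closes a negative feedback loop. In mouse ESCs, BMP acting through Id genes together with LIF is known to hold back neural differentiation.

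Fragment totals ranged from 11131490 to 25854106 per library, and levels are given as CPM, fragments scaled to a common library size with TMM factors. A difference was called where edgeR's quasi-likelihood test gave a Benjamini-Hochberg adjusted p below 0.05 over all tested TUs, and log2 fold changes are given ± SE. All 10 ESC markers were tested. Their sum was 4250 to 4650 CPM in NT, 4000 to 4320 CPM at 0.5 hpd, 3830 to 4220 CPM at 1 hpd, 4040 to 4140 CPM at 2 hpd and 3600 to 3870 CPM at 6 hpd. It thus lay below NT from 1 hpd on, and its part in the results was not tested. Of 6 fibroblast markers, 1 was tested and lay at 0.312 to 1.16 CPM, and the other 5 had no TU under their symbol. Of 4 mesoderm markers, 1 was tested (Mixl1, 0.257 to 0.74 CPM). In a bulk sample, more transcription per cell and more cells of a transcribing type cannot be told apart. The depletion acts on protein, which these counts do not measure.

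The TUs differed in how much of the annotated gene they held. That of Bmp4 (chr14:46379043-46389936, minus strand of mm10) was 10.9 kb long and that of Bmpr1a (chr14:34389526-34503414, minus strand) 113.9 kb. The Smad6 TU (chr9:63945411-64022942, minus strand) spanned 77.5 kb. Id1 (chr2:152726250-152740403, plus strand) had a TU of 14.2 kb, Id2 (chr12:25091833-25098781, minus strand) of 6.9 kb and Id3 (chr4:136143828-136149001, plus strand) of 5.2 kb. Only 4.13% of the Smad6 TU and 5.58% of the Bmpr1a TU were exonic in GENCODE. The counts are not split into exonic and intronic fragments. For the short Id genes the TU reached well outside the gene. The Id1 TU began 10000 bp before the annotated transcript, and only 8.2% of it lay in that transcript. For Id2 and Id3 the share was 33% and 30.2%, with 1965 and 3609 bp of the TU past the transcript end. Values of Id1 therefore count fragments of the flanking stretch together with those of the gene, and the files do not separate them.

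**Figure D1:**
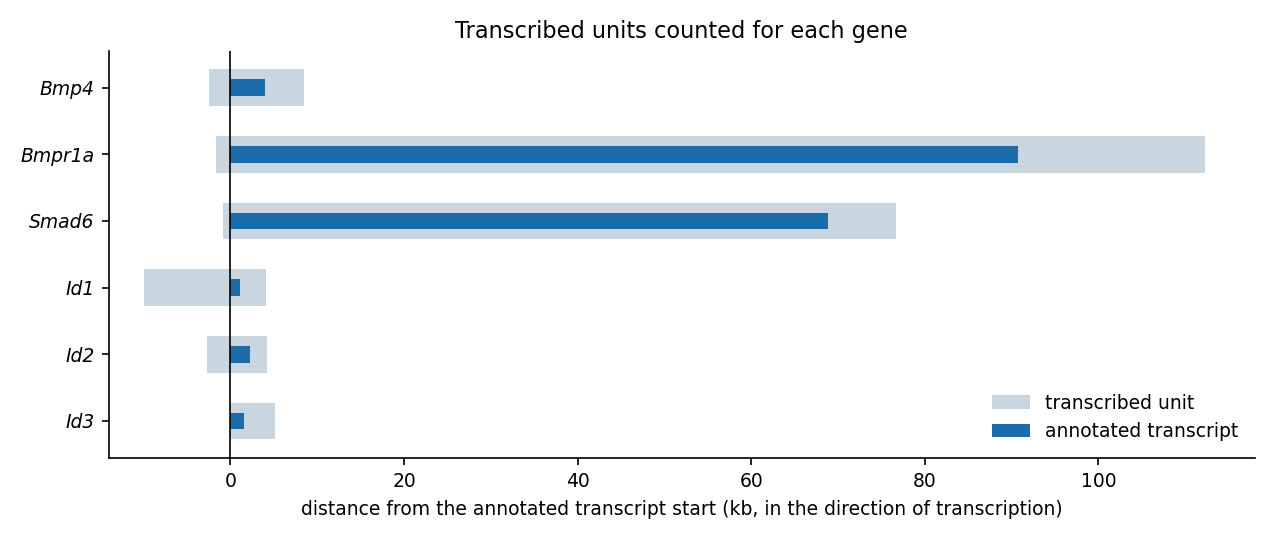
Extent of the TU of each gene relative to the start of its annotated transcript, in kb along the direction of transcription. Bars show the TU and the annotated transcript within it. The Id1 TU starts 10 kb upstream of a transcript that covers 8.2% of it, whereas the transcripts of Smad6 and Bmpr1a cover 88.8% and 79.7% of theirs.

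Promoter sequence was read for the genes that changed, since 3 of them rose together at 2 and 6 hpd. RefSeq promoter windows were given for 5 of the 6 genes, without Id1. The 250 bases before the RefSeq start are printed 5′ to 3′ on the coding strand of GRCm38.p6, with GGCGCC, a GC-rich element bound by SMAD1 and SMAD5, in capitals. They are Id2 at chr12:25096093-25096342, Smad6 at chr9:64022060-64022309 and Bmpr1a at chr14:34502547-34502796, each on the minus strand.
Id2: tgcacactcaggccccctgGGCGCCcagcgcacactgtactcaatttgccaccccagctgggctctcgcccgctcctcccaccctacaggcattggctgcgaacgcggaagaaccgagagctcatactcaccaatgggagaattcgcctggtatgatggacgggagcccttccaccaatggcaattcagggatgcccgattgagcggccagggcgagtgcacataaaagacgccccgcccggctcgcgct
Smad6: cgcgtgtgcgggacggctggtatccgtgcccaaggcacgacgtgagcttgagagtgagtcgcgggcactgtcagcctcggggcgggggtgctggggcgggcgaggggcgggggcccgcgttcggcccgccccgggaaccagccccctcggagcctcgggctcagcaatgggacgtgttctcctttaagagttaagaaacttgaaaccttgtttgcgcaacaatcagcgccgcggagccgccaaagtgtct
Bmpr1a: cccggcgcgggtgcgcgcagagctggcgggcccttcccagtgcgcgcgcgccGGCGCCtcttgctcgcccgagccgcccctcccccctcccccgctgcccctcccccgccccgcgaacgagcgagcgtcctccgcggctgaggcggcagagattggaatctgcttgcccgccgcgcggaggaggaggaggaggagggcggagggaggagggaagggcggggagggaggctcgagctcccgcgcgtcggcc

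GGCGCC occurred 1 time in the Id2 window and 1 time in the Bmpr1a window. It was absent from those of Smad6, Id3 and Bmp4, while 9.59% of all 32851 windows of this length hold it. The palindromic SMAD element GTCTAGAC (in 0.167% of all windows), the SOX core ACAATG or ACAAAG (25.2%), the octamer ATGCAAAT (1.6%) and the cAMP response element TGACGTCA (1.55%) were searched on both strands and were in none of the 5 windows. The windows were GC-rich, at 62.8% for Id2 and Id3, 63.2% for Bmp4, 66.8% for Smad6 and 78.8% for Bmpr1a, against a median of 52.4% over all windows. The RefSeq starts of Id2, Smad6 and Bmpr1a lie 2689, 883 and 868 bp inside the start of the deposited TU.

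Which of the 6 genes changed after SOX2 depletion was asked at each time against the same 2 NT libraries. No control was matched to each time. Medium was refreshed before treatment according to the methods, which do not say how long before harvest. Time since that change therefore cannot be told apart from time of depletion. The inhibitor Smad6 and the target Id2 rose at all 4 times, Id1 rose at 0.5 and 1 hpd, and the receptor Bmpr1a rose at 2 and 6 hpd. In this main fit Bmp4 and Id3 were called at no time, and no gene was called lower than in NT. With replicate number as a block, edgeR called Id3 lower at 6 hpd (-0.56, adjusted p = 0.015), though the labels do not say that it marks a batch. At 0.5 hpd 3 of 6 were called, all up, against 1.31% of all tested TUs (0.527% up and 0.787% down). At 1 hpd 3 of 6 were called, against 5.75% (2.15% up and 3.61% down). At 2 hpd the 3 calls stood against 9.83% (4.26% up and 5.57% down), and at 6 hpd against 15.8% (6.61% up and 9.2% down). Leaving out NT replicate 2 lowered the share of all TUs called at each time. The balance of all TUs between up and down turned in some alternatives. More were up than down in DESeq2 at 0.5 hpd (207 and 190) and 2 hpd (1396 and 1025), over TUs averaging 50 fragments or more at 0.5 hpd (167 and 155), with only the libraries compared at 1 hpd (1751 and 1264) and 6 hpd (2781 and 2741), and without 2 hpd replicate 2 at 2 hpd (2065 and 1654). Total counts gave 462 up and 1233 down at 1 hpd and 835 up and 2066 down at 2 hpd. A joint test over the 4 times called Id1, Id2, Smad6 and Bmpr1a, where 12.3% of all TUs were called. The median log2 fold change of the 6 genes was 0.57, 0.52, 0.38 and 0.28 at 0.5, 1, 2 and 6 hpd, beside -0.022, -0.043, -0.04 and -0.036 over all TUs. Both depleted libraries lay on the same side of both NT libraries for 4, 4, 4 and 3 of the 6 genes, which held for 34.6%, 49.6%, 49.3% and 58.5% of all TUs. With 2 libraries a group, non-overlap was thus common among TUs in general.

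**Figure D2:**
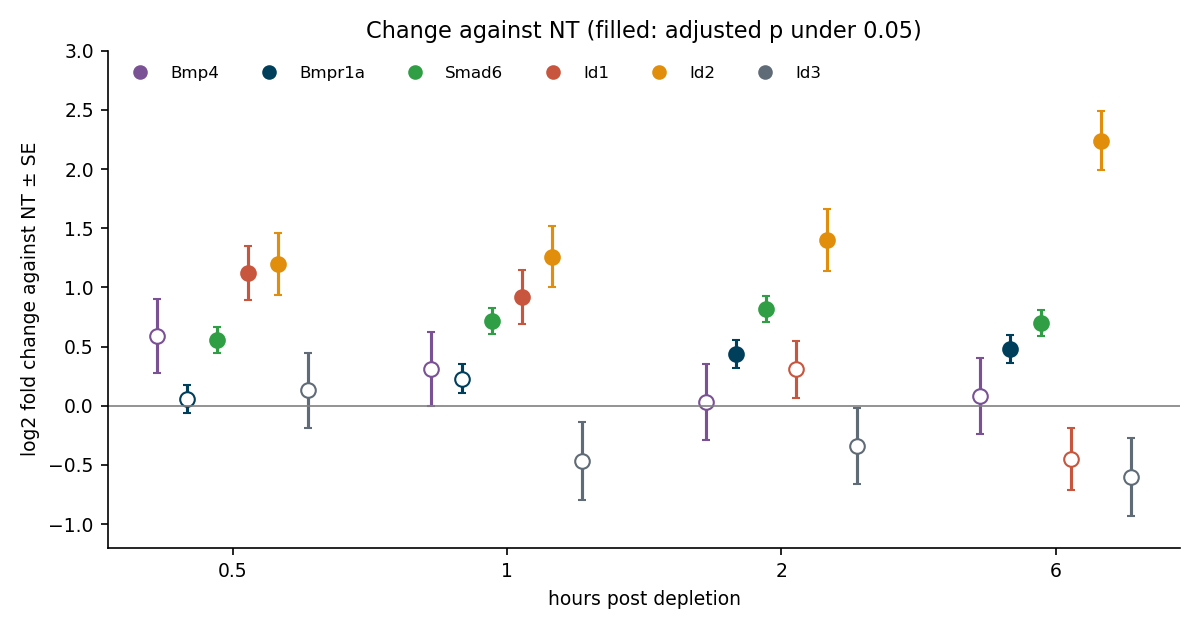
Log2 fold change of each gene against NT (vertical axis) at 0.5, 1, 2 and 6 hpd (horizontal axis), with bars of 1 SE from the edgeR fit over 10 libraries. Id2 stands at 2.24 at 6 hpd, Id1 starts at 1.12 and ends at -0.45, Smad6 stays between 0.56 and 0.82, and Bmp4 and Id3 have the widest bars, of 0.31 to 0.33.

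Bmp4 encodes the ligand. Its TU held 22 and 37 fragments in the NT libraries, 1.48 and 2.69 CPM, which made it the least counted of the 6 genes. The depleted libraries held 3.08 and 3.16 CPM at 0.5 hpd, 2.32 and 2.79 CPM at 1 hpd, 1.92 and 2.34 CPM at 2 hpd, and 2.67 and 1.75 CPM at 6 hpd. Only the pair at 0.5 hpd lay above both NT libraries. The log2 fold change there was 0.59 ± 0.31 (adjusted p = 0.6), and at the later times it was 0.31 ± 0.31, 0.03 ± 0.32 and 0.08 ± 0.32 (adjusted p = 0.66 to 0.96). The value at 0.5 hpd was close to that of Smad6 (0.56 ± 0.11), but with an SE of 0.31 it was not called. Annotated genes on the opposite strand, Gm15217 and Gm15222, overlap the Bmp4 TU, but alignments were split by strand before counting.

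Bmpr1a, the type I receptor that binds BMP4, had the highest counts of the set, with 2301 to 6121 fragments per library. NT libraries held 208 and 207 CPM, and those at 0.5 hpd held 235 and 197 CPM, to either side of NT. At 1 hpd the values were 249 and 238 CPM, at 2 hpd 309 and 253 CPM, and at 6 hpd 274 and 305 CPM. From 1 hpd on, every depleted library was above NT. On the log2 scale Bmpr1a stood 0.06 ± 0.12 from NT at 0.5 hpd (adjusted p = 0.95) and 0.23 ± 0.12 above it after 1 hour (adjusted p = 0.34). It reached 0.44 ± 0.12 by 2 hpd, with an adjusted p of 0.033, and 0.48 ± 0.12 by 6 hpd (adjusted p = 0.015), a 1.39-fold level. Leaving out either NT library, either 1 hpd library or 2 hpd replicate 1 ended the call at 2 hpd (0.28 to 0.44, adjusted p = 0.058 to 0.27). It also ended when only the compared libraries were fitted (adjusted p = 0.075), a fit that called Bmpr1a at 1 hpd (0.25, adjusted p = 0.036). At 6 hpd it ended without either NT library or 6 hpd replicate 2 (0.4 to 0.5, adjusted p = 0.054 to 0.13).

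Smad6, the inhibitory SMAD, was called at every time, with the smallest SE of the 6 genes. NT libraries held 64 and 57.1 CPM. The 8 depleted libraries held 84.5 and 94.2 CPM at 0.5 hpd, 99.2 and 99.9 CPM at 1 hpd, 114 and 99.9 CPM at 2 hpd, and 91.9 and 104 CPM at 6 hpd. All of them were above both NT libraries. The increase was 0.56 ± 0.11 on the log2 scale at 0.5 hpd, with an adjusted p of 0.022, and 0.72 ± 0.11 at 1 hpd, with an adjusted p of 0.0011. At 2 hpd it was 0.82 ± 0.11 (adjusted p = 0.00023), a 1.77-fold level, and at 6 hpd 0.70 ± 0.11 (adjusted p = 0.00066). The calls at 1, 2 and 6 hpd were kept under all 17 alternatives. That at 0.5 hpd was lost without either NT replicate or without 0.5 hpd replicate 2 (0.48 to 0.64, adjusted p = 0.057 to 0.22). Between 6 and 1 hpd the difference was -0.02 ± 0.11 (adjusted p = 0.95).

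Id1, a classical immediate target of BMP, was highest at 0.5 hpd and lowest at 6 hpd. NT libraries held 3.84 and 2.83 CPM, from 57 and 39 fragments. Values were 7.18 and 7.44 CPM at 0.5 hpd, 6.65 and 6.04 CPM at 1 hpd, 4.1 and 4.21 CPM at 2 hpd, and 3.02 and 1.92 CPM at 6 hpd. Libraries at 0.5, 1 and 2 hpd lay above NT, while those at 6 hpd overlapped it. Its increase at 0.5 hpd was 1.12 ± 0.23 on the log2 scale (2.18-fold, adjusted p = 0.021), and at 1 hpd 0.92 ± 0.23 (adjusted p = 0.026). Neither the value at 2 hpd (0.31 ± 0.24) nor that at 6 hpd (-0.45 ± 0.26) was called (adjusted p = 0.46 and 0.25). These early calls were sensitive to single libraries. At 0.5 hpd the call was lost without either NT replicate or either 0.5 hpd replicate (0.93 to 1.36, adjusted p = 0.051 to 0.22). At 1 hpd it was lost without NT replicate 2 or either 1 hpd replicate (0.74 to 0.99, adjusted p = 0.097 to 0.21) and with total counts in place of TMM (0.83, adjusted p = 0.064).

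The direct test between 6 and 1 hpd, a contrast without NT in the fit of all 10 libraries, called Id1 lower at 6 hpd by a log2 difference of -1.37 ± 0.24 (adjusted p = 0.003). The 6 hpd libraries held 0.386 times the level at 1 hpd. Without 6 hpd replicate 2 the difference was -1.07 (adjusted p = 0.058). Trophoblast markers, of which 2 of 6 were tested (Eomes and Tfap2a), summed to 4.17 to 5.23 CPM in NT, 8.26 to 10.6 CPM from 0.5 to 2 hpd and 4.43 to 4.92 CPM at 6 hpd. Their sum was thus above NT from 0.5 to 2 hpd and within its range at 6 hpd. Cdx2, a defining marker, was below the count filter, and Elf5, Krt7 and Hand1 had no TU under their symbol. Their part in the Id1 values was not tested.

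Id2, which shares the helix-loop-helix region of the family, was above NT at every time and showed the largest change of the 6 genes. NT libraries held 2.96 and 3.56 CPM, from 44 and 49 fragments. At 0.5 hpd the values were 6.13 and 9.24 CPM, at 1 hpd 6.59 and 9 CPM, at 2 hpd 7.03 and 10.3 CPM, and at 6 hpd 15 and 15.7 CPM. No depleted library overlapped NT, and both 6 hpd libraries were above all others. Relative to NT its log2 value was higher by 1.2 ± 0.26 at 0.5 hpd (adjusted p = 0.036), by 1.26 ± 0.26 at 1 hpd (adjusted p = 0.0082) and by 1.40 ± 0.26 at 2 hpd, with an adjusted p of 0.0024. At 6 hpd it reached 2.24 ± 0.25 (adjusted p = 2.3e-05), a 4.72-fold level. Calls at 2 and 6 hpd were kept under all 17 alternatives. That at 1 hpd was lost without either NT replicate or without 1 hpd replicate 2 (1.02 to 1.42, adjusted p = 0.057 to 0.11). That at 0.5 hpd was lost under 7 alternatives, which left out either NT replicate, 0.5 hpd replicate 2 or either 6 hpd replicate, used total counts, or dropped TUs whose mean was under 50 fragments (0.92 to 1.33, adjusted p = 0.056 to 0.25).

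Id2 was higher at 6 than at 1 hpd by 0.98 ± 0.22 on the log2 scale (adjusted p = 0.017). Leaving out 1 hpd replicate 1 or either 6 hpd replicate gave 0.77 to 1 with adjusted p = 0.088 to 0.18. Id1 and Id2 thus moved in opposite directions between 1 and 6 hpd. Primitive endoderm markers, of which 4 of 6 were tested, summed to 3.85 to 4.71 CPM in NT, 4.27 to 5.41 CPM at 0.5 and 1 hpd, 5.61 to 6.66 CPM at 2 hpd and 6.46 to 7.28 CPM at 6 hpd. Neural markers, of which 2 of 4 were tested (Pax6 and Tubb3), summed to 24 to 29.8 CPM in NT, 33.1 to 33.3 CPM at 0.5 hpd, 27.8 to 29.5 CPM at 1 hpd, 19.6 to 22.6 CPM at 2 hpd and 16.4 to 20.2 CPM at 6 hpd. Their sum was thus above NT at 0.5 hpd and below it from 2 hpd on. Sox17, Foxa2, Sox1 and Neurod1 were below the filter or had no TU, and the part of these cell types in the Id2 values was not tested.

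Id3 had the widest spread between replicates. Its NT libraries held 11.8 and 26.9 CPM. Depleted libraries held 17.2 and 25.5 CPM at 0.5 hpd, 11.3 and 16.5 CPM at 1 hpd, 11.2 and 19.4 CPM at 2 hpd, and 11.5 and 13.9 CPM at 6 hpd. Every time point overlapped NT. The log2 fold change was 0.13 ± 0.32, -0.47 ± 0.33, -0.34 ± 0.32 and -0.60 ± 0.33 at 0.5, 1, 2 and 6 hpd (adjusted p = 0.24 to 0.96). The value at 6 hpd moved with the NT library left out. Without NT replicate 2 the value was 0.13 (adjusted p = 0.88), and without NT replicate 1 it was -1.06 and called (adjusted p = 0.038). Replicate 2 was above replicate 1 in 5 of 5 groups for Id3, by 1.2 to 2.28 times, and also for Id2, by 1.05 to 1.51 times. For Bmpr1a this held in 1 of 5 groups.

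**Figure D3:**
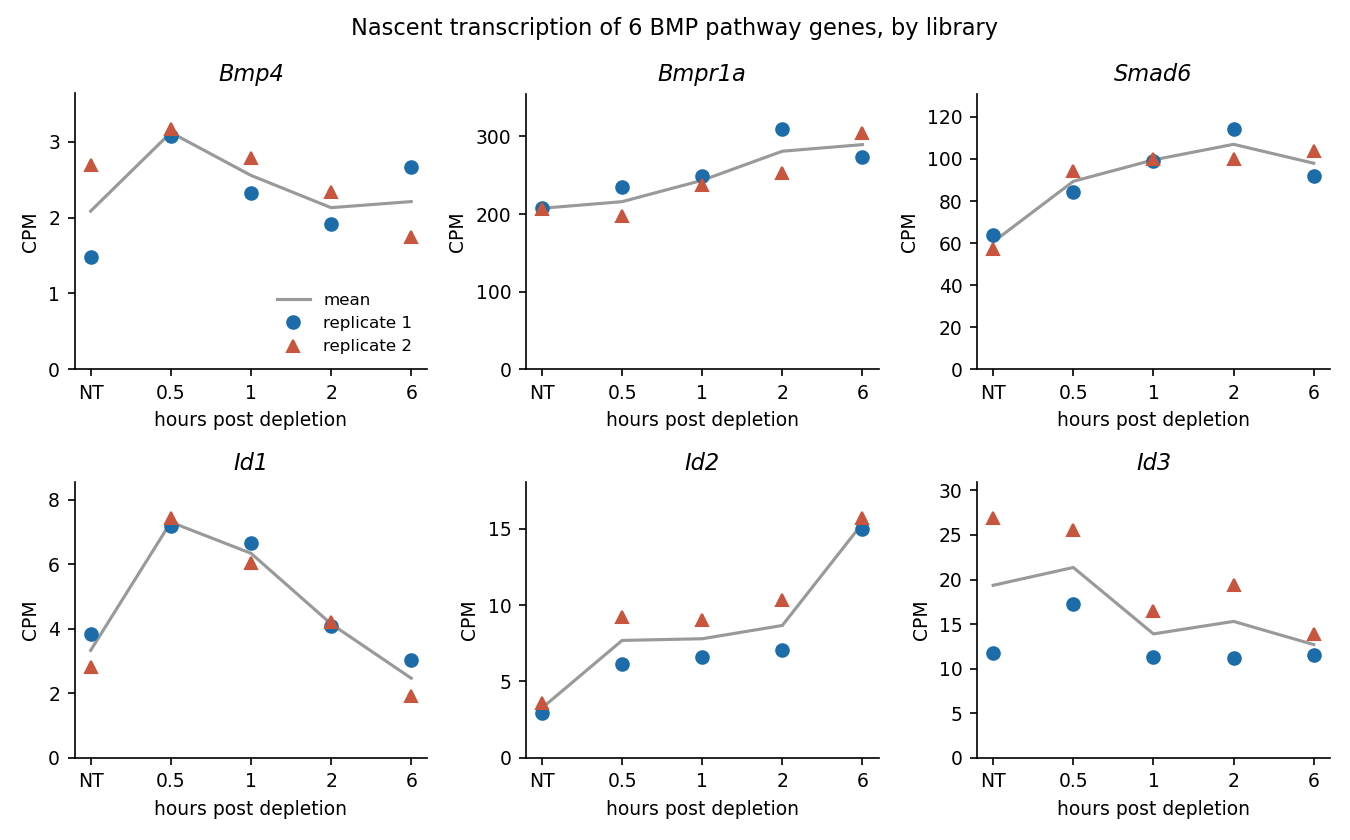
CPM of each gene (vertical axis) in the 10 libraries by group (horizontal axis), with a point for each library and a line for the group mean (n = 2). Id2 separates at 6 hpd, with 15 and 15.7 CPM against 2.96 and 3.56 CPM in NT, whereas Id3 in NT alone spans 11.8 to 26.9 CPM.

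Between successive times no gene of the 6 was called by the main edgeR fit, nor by DESeq2. For 1 against 0.5 hpd this was 0 of 6, where 0.109% of all TUs were called and none of the 6 had an unadjusted p under 0.05. For 2 against 1 hpd it was 0 of 6 against 0.218%, and Id1 had an unadjusted p of 0.013 in the quasi-likelihood test of edgeR. For 6 against 2 hpd it was 0 of 6 against 0.777%, with unadjusted p of 0.0069 for Id1 and 0.0016 for Id2 in the same test. With replicate number as a block, 1 of the 6 was called up there, against 3.53% of all TUs called. Over the longer step from 1 to 6 hpd, 2 of 6 were called, Id2 up and Id1 down, against 4.88% of all TUs (1.96% up and 2.92% down).

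Levels can be ordered between genes only per length, as CPM per kb of TU. In NT the order was Id3 (3.74 ± 2.1 SD, n = 2), Bmpr1a (1.82 ± 0.002), Smad6 (0.781 ± 0.063), Id2 (0.469 ± 0.061), Id1 (0.236 ± 0.05) and Bmp4 (0.191 ± 0.078). Neither Id3 and Bmpr1a nor Id1 and Bmp4 differed beyond their spread. At 6 hpd the CPM per kb was 2.54 ± 0.19 for Bmpr1a, 2.45 ± 0.32 for Id3 and 2.21 ± 0.07 for Id2 (SD, n = 2), so that Id2 had moved above Smad6 (1.26 ± 0.11). Id3 could not be placed apart from either of its neighbours there. Bmp4 (0.203 ± 0.06) and Id1 (0.175 ± 0.055) were then lowest, again within their spread. The flanking sequence in the Id TUs enters these levels.

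For each gene the 3 TUs most like it were sought by Pearson's r of log2 CPM over the 10 libraries. Candidates were the 11937 other TUs (11938 for Bmp4) that had a symbol and averaged 50 fragments or more. Those of Id2 were Wnt11 (r = 0.984), a WNT ligand, Axin2 (0.98), a feedback inhibitor of WNT signalling, and Klhdc7a (0.967). Those of Id1 were Bcl3 (0.972), a coactivator of NF-kB, Plekhm1 (0.963) and Uchl1 (0.961). Smad6 was most like Mypn (0.988) and also like Fam13c (0.967), and Bmpr1a most like the ubiquitin ligase Cblb (0.992), Smchd1 (0.989) and Mkln1 (0.988). Id3 was nearest to Lyzl4 (0.951), Rps27 (0.939) and Pigl (0.931), and Bmp4 to Gm41719 (0.897) and Prss48 (0.889). Bmp4 averaged fewer fragments and was not a candidate for the other genes. None of the other 5 was among the 3 TUs of another member. Between members r ranged from -0.62 for Id3 and Bmpr1a to 0.76 for Id2 and Smad6, and Id1 and Id2 gave -0.19. These correlations share libraries, depth and time course and are descriptions only.

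The rest of the pathway was covered by a list of 47 further genes, of which 27 were tested. Acvrl1, Nog and Hey1 were below the filter, and 17 had no TU under the symbol searched (among them Bmp2, Bmp5, Bmp6, Gdf2, Gdf5, Gdf6, Bmpr1b, Smad4, Smurf1, Chrd, Grem1, Cer1, Bmper, Nbl1, Msx1 and Tcf4) and were not analysed here. At 0.5 hpd 1 of 27 was called (3.7%), and at 1 hpd 3 (11.1%), of which 2 were up. At 2 hpd 4 were called (14.8%), of which 3 were up, and at 6 hpd 7 (25.9%), of which 5 were up. Both counts rose or fell as single libraries were left out. At 2 hpd total counts gave 1 up and 2 down, RLE factors 3 up and 1 down, and DESeq2 4 up and 0 down. The corresponding shares of all TUs were 1.31%, 5.75%, 9.83% and 15.8%. Over TUs averaging 50 fragments or more, as 21 of the 27 did, the shares were 2.15%, 8.78%, 15% and 21.5%. The pathway share at 2 hpd was not above the share of these deeper TUs. The median log2 fold change of the 27 was 0.04, 0.1, 0.1 and 0.11. Most of the list therefore passed no test at any time, and 9 genes were called at 1 time or more.

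Among the 4 ligands tested, Bmp8a rose early. It held 17.2 and 17.2 CPM in NT and 31.2 and 33.1 CPM at 1 hpd. The changes were 0.69, 0.90, 0.52 and 0.28, each ± 0.11, on the log2 scale at 0.5, 1, 2 and 6 hpd (adjusted p = 0.006, 0.00017, 0.0075 and 0.11). It was lower at 6 than at 1 hpd by -0.62 ± 0.11 (adjusted p = 0.0037). Its near-identical neighbour Bmp8b, with 4 to 12 fragments, gave 0.70, 1.11, 0.36 and -0.13 and was not called, and fragments of the pair may not be fully separable. Of 6 receptors and co-receptors tested, the type I receptor Acvr1 rose at 6 hpd, from 109 and 101 CPM to 156 and 166 CPM (0.61 ± 0.11, adjusted p = 0.0011), and exceeded its 1 hpd level by 0.52 ± 0.11 (adjusted p = 0.0098). Without either 1 hpd replicate or 6 hpd replicate 2 that difference was 0.47 to 0.53 (adjusted p = 0.086 to 0.13). The call at 0.5 hpd for Bmp8a was lost without NT replicate 2 or 0.5 hpd replicate 2 (adjusted p = 0.063 and 0.05), and that at 2 hpd with total counts (adjusted p = 0.056). Its difference between 6 and 1 hpd was -0.57 without 1 hpd replicate 2 or 6 hpd replicate 2 (adjusted p = 0.056 to 0.072).

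Of 3 signal-carrying SMADs, Smad5 rose at 2 hpd (0.39 ± 0.10) and 6 hpd (0.38 ± 0.10), with adjusted p of 0.026 and 0.022. Its NT libraries held 60.8 and 54.6 CPM and its 6 hpd libraries 73 and 77 CPM. Without NT replicate 2 both were uncalled (0.32, adjusted p = 0.2 and 0.14), as was that at 2 hpd with total counts (0.27, adjusted p = 0.071), with only the libraries compared (adjusted p = 0.1) and without 2 hpd replicate 1 (0.36, adjusted p = 0.12) and that at 6 hpd without either 6 hpd replicate (0.34 to 0.43, adjusted p = 0.058 to 0.14). Of 5 inhibitors inside the cell, Skil, which encodes a corepressor of SMADs, rose at 6 hpd from 46.8 and 51.2 CPM to 64.6 and 72.6 CPM (0.49 ± 0.11, adjusted p = 0.0058). Without 6 hpd replicate 2 it gave 0.4 (adjusted p = 0.08). Of 3 secreted antagonists, Fst, which encodes follistatin, fell at 1, 2 and 6 hpd, with log2 fold changes of -1.38, -1.14 and -1.29 (adjusted p = 0.02, 0.032 and 0.015). It held 2.15 and 2.54 CPM in NT and 1.05 and 0.874 CPM at 6 hpd, from 14 to 40 fragments per library. DESeq2 called it at none of these times (adjusted p = 0.1, 0.14 and 0.093). Its calls were also lost without either NT replicate or either 1 hpd replicate at 1 hpd, without either NT replicate or 2 hpd replicate 1 or with only the compared libraries at 2 hpd, and without NT replicate 2 or either 6 hpd replicate at 6 hpd (-1.48 to -0.86, adjusted p = 0.051 to 0.29).

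Other targets moved unequally. Id4, the remaining Id gene, gave -0.52, -0.73, -0.42 and -0.34 at 0.5, 1, 2 and 6 hpd and was called at no time. Dusp9, a phosphatase of ERK kinases that BMP is known to induce in mouse ESCs, rose at 6 hpd, from 5.59 and 6.1 CPM to 13.3 and 9.96 CPM (0.99 ± 0.18, adjusted p = 0.0016). Atoh8, a basic helix-loop-helix factor, rose at 1 and 2 hpd (1.57 ± 0.40 and 1.70 ± 0.39, adjusted p = 0.032 and 0.012). It rested on 8 fragments in each NT library and 27 to 39 at these times, and DESeq2 did not call it at 1 hpd (adjusted p = 0.087). Its calls were lost without either NT replicate, either 1 hpd replicate at 1 hpd or 2 hpd replicate 1 at 2 hpd (1.45 to 1.76, adjusted p = 0.073 to 0.19). Msx2, a homeobox gene, fell at 6 hpd (-3.15 ± 0.71, adjusted p = 0.007). Its TU held 26 fragments over both NT libraries and 3 over both 6 hpd libraries, a ratio of 0.11 with a 95% counting interval of 0.02 to 0.34. Tcf12, one of the E proteins that ID proteins bind, rose at 6 hpd, from 105 and 111 CPM to 141 and 173 CPM (0.55 ± 0.15, adjusted p = 0.019). Tcf12 was uncalled without either NT replicate (adjusted p = 0.08 to 0.081) or without 6 hpd replicate 2 (0.39, adjusted p = 0.19), and Msx2 without 6 hpd replicate 2 (-2.63, adjusted p = 0.085).

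**Figure D4:**
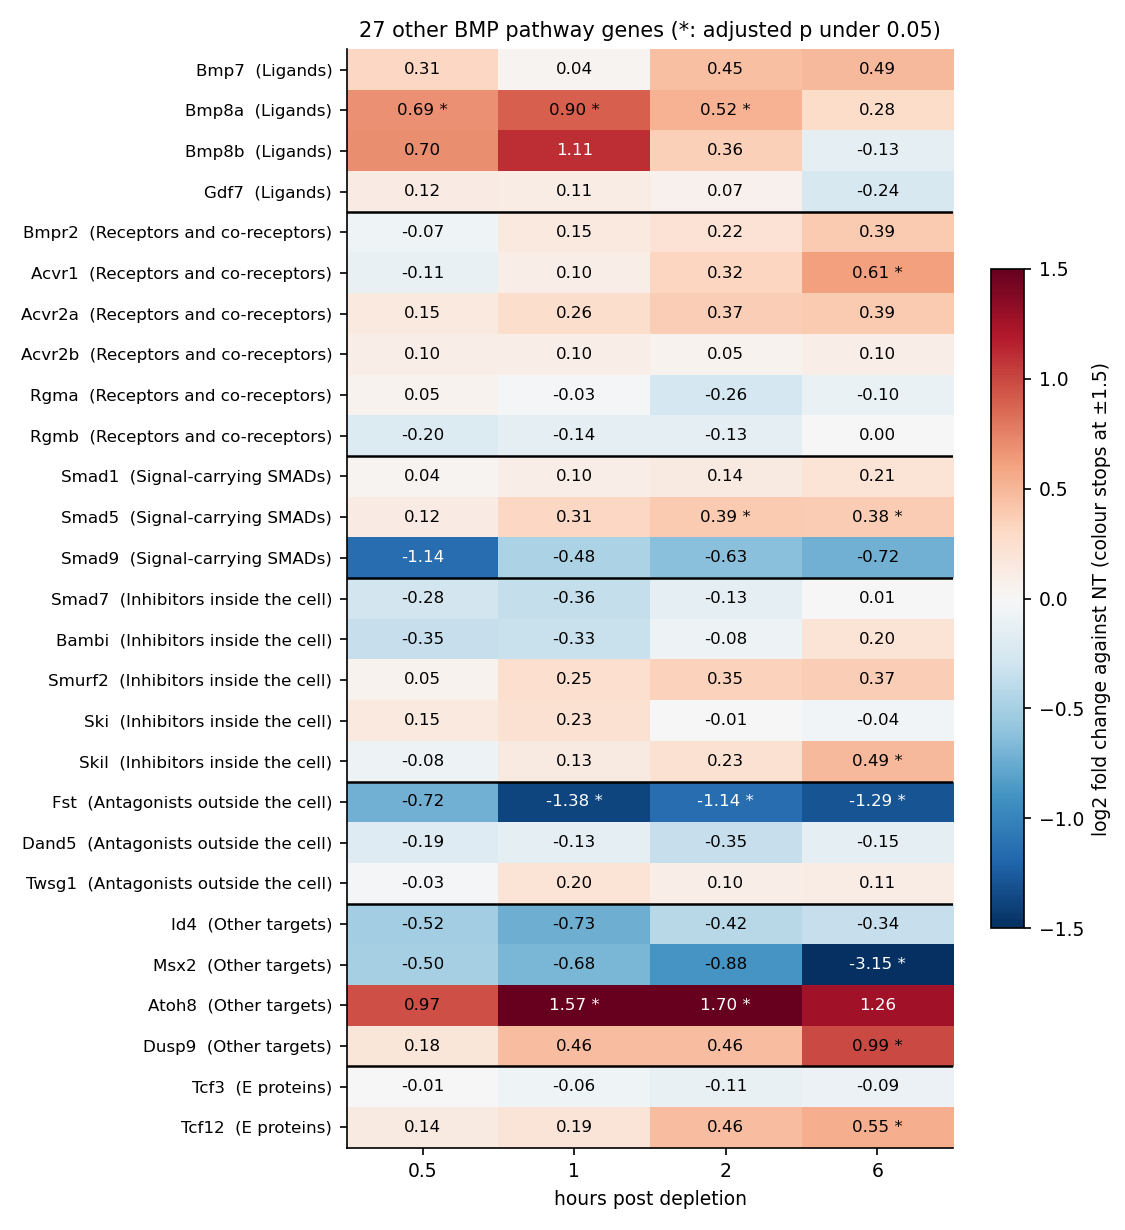
Log2 fold change against NT (colour, which stops at ±1.5) of the 27 other tested pathway genes (rows, by role) at 0.5, 1, 2 and 6 hpd (columns), with a mark where the change was called. Calls among the 27 are few at 0.5 hpd (1, Bmp8a) and number 7 at 6 hpd.

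Transcription around the 6 genes was read from the 41 TUs within 50 kb of their TUs, of which 27 were tested. At 0.5 hpd none of the 27 was called by the main edgeR fit or by DESeq2, though some were with replicate number as a block. In the main fit 5 had an unadjusted p under 0.05 at that time, as did 9.61% of all tested TUs. By 1 hpd 5 (18.5%) were called, of which 1 was up. At 2 hpd 4 (14.8%) were called, none of them up, and at 6 hpd 6 (22.2%), of which 1 was up. The shares of all tested TUs called at these times were 5.75%, 9.83% and 15.8% (3.61%, 5.57% and 9.2% down). All those called at 2 hpd lay near Bmpr1a, in pairs of adjoining TUs. Those called up were E2f2, 22956 bp from Id3, at 1 hpd (0.45 ± 0.11, adjusted p = 0.02) and Kidins220, 27578 bp from Id2, at 6 hpd (0.51 ± 0.12, adjusted p = 0.012). E2f2 was uncalled with total counts (0.36, adjusted p = 0.057) and without NT replicate 2 or either 1 hpd replicate (0.38 to 0.45, adjusted p = 0.14 to 0.16). Its level at 6 hpd was lower than at 1 hpd by -0.40 ± 0.11 (adjusted p = 0.042), a call lost in DESeq2 (adjusted p = 0.083), with RLE factors, without the count filter, and without 0.5 hpd replicate 1 or either 1 hpd or 6 hpd replicate (-0.43 to -0.38, adjusted p = 0.052 to 0.24). Kidins220 was uncalled without NT replicate 2 or 6 hpd replicate 1 (0.44 to 0.48, adjusted p = 0.073 to 0.11). No tested TU near Id1 or Bmp4 was called.

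Of 9 tested TUs near Bmpr1a, 4 were called lower at 1 time or more, and 5 were called at no time. These 4 adjoin in pairs. On the minus strand Fam25c ends at 34355393 and Sncg begins at 34355404. On the plus strand Glud1 ends at 34365115 and Gm41131 begins at 34365126. The 4 calls therefore cannot be taken as independent. Sncg, 6526 bp downstream of its TU on the same strand, fell at 1, 2 and 6 hpd, with log2 fold changes of -0.86, -1.11 and -1.08 (adjusted p = 0.026, 0.0037 and 0.0036). Fam25c fell likewise (-0.92, -1.09 and -1.24, adjusted p = 0.0067, 0.0014 and 0.00039), and Glud1, which encodes glutamate dehydrogenase, at 1 and 2 hpd (-0.58 and -0.46, adjusted p = 0.0035 and 0.012). Gm41131, chosen after its values were seen, was also called lower at 1, 2 and 6 hpd (-0.85, -0.93 and -0.80, adjusted p = 0.043, 0.019 and 0.029). Mmrn2, whose TU overlaps the end of the Bmpr1a TU on the opposite strand, gave -0.61 at 6 hpd (adjusted p = 0.075). Ldb3, on the other side, gave -0.34 (adjusted p = 0.42), and the 3 unnamed TUs gave -0.76 to -0.06 (adjusted p = 0.18 to 0.9). NT replicate 2 bore on these calls. Without it Sncg was called at no time (-0.68 to -0.41, adjusted p = 0.092 to 0.42), Glud1 was not called at 1 or 2 hpd (adjusted p = 0.065 and 0.12) and Fam25c was not called at 1 hpd (-0.62, adjusted p = 0.14). Without 1 hpd replicate 1, all 3 were uncalled at 1 hpd (adjusted p = 0.068 to 0.29). Sncg at 1 hpd was also uncalled over TUs averaging 50 fragments or more (adjusted p = 0.051), and Glud1 at 2 hpd with only the libraries compared (adjusted p = 0.05). Gm41131 was called at none of the 3 times by DESeq2 (adjusted p = 0.07 to 0.17) or without NT replicate 2 (-0.61 to -0.46, adjusted p = 0.28 to 0.46). It was further uncalled at 1 hpd over those TUs and without 1 hpd replicate 1 or 6 hpd replicate 1, at 2 hpd without 2 hpd replicate 1, and at 6 hpd without either 6 hpd replicate (adjusted p = 0.05 to 0.38).

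TUs on the opposite strand overlapped the TUs of several members. Within Smad6, an unnamed antisense TU (chr9:63971355-63972875, plus strand) held 1.01 and 1.45 CPM in NT and 0.281 and 0.233 CPM at 6 hpd. The log2 difference at 6 hpd was -2.23 (adjusted p = 0.01), beside 0.70 for Smad6 itself. It rested on 15 and 20 fragments in NT and 4 and 4 at 6 hpd. At 0.5, 1 and 2 hpd the values were -0.59, -1.27 and -1.24 and were not called (adjusted p = 0.77, 0.14 and 0.099). The call at 6 hpd was not made by DESeq2 (adjusted p = 0.051), without NT replicate 2 or without either 6 hpd replicate (-2.35 to -1.94). An unnamed TU (chr4:136146285-136147795, minus strand) lay opposite the part of the Id3 TU past the annotated gene, which ends at 136145755. It gave -2.09 at 6 hpd (adjusted p = 0.039), on 1 to 14 fragments per library. That call was lost in DESeq2 (adjusted p = 0.15) and without either replicate of NT, 1 hpd or 6 hpd (-3.19 to -1.54). Within Bmpr1a, an unnamed antisense TU (chr14:34460372-34461557, plus strand) gave 0.87, 1.04, 1.12 and -0.76 at 0.5, 1, 2 and 6 hpd. It was called at no time. TUs antisense to the starts of Id2 and Smad6 were below the count filter.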

How the data were processed

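TT_chem-seq libraries of SOX2-FKBP cells (5 groups of 2, grouped by the labels' treatment and time) were analysed. Per the study's methods and the submitters' processing notes, alignment by the authors used bwa 0.7.17-r1188 on mm10. They filtered with samtools 1.10, removed duplicates with Picard 2.12.0, split alignments by strand, defined transcribed units (TUs) on the pooled data and deposited raw fragment counts per TU. Positions are as deposited, and starts may be 1 bp low in a count from 1.

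The study's filter, over 10 fragments in 2 libraries or more, left out 12320 TUs, which held 0.316% of all fragments. The fit used edgeR 4.0.16 under R 4.3.3, TMM factors, a coefficient for each group and the quasi-likelihood F-test. The biological coefficient of variation was 10%. Log2 CPM used a prior count of 2. Library totals (11131490 to 25854106 fragments) limit the precision, and counting intervals cover counting error only. Replicates differed by more than counting error (chi-square per degree of freedom 2.69 to 9.03). The labels do not say that they were separate cultures, so that p-values measure the spread between these libraries. On simulated data for 6 hpd against NT, over 27486 TUs, 68.7% of 2-fold changes were recovered and 6.35% of calls were false. Only 200 TUs were changed there, and no effect was shared by replicates of the same number. These rates therefore need not hold for the calls reported here.

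The 6 genes and all lists were chosen with earlier results of these data known. Named were the 6 genes, pathway genes and up to 3 neighbouring TUs per gene called at any time, and, of the 3 TUs most like each gene, those reported here. A few genes that this rule or the lists name are not reported here. Alternatives were DESeq2 1.42.0, RLE factors, total counts, no filter, a mean of 50 fragments or more, only the libraries compared, the replicate block, and leaving out each library. A planned comparison of the ID proteins was not made. Motifs were searched with Python 3.11.15.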

Additional observations from a re-analysis of the deposited data

Results flagged for a closer look

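Direct tests between time points, contrasts without NT in the fit of all 10 libraries, singled out 5 of the named genes whose level differed between 1 and 6 hpd in edgeR's quasi-likelihood test, which called 4.88% of all tested TUs in this comparison. Pathway genes and neighbours were named because they were called at some time, so that this share is no baseline for them. Id1 was lower at 6 hpd by a log2 difference of -1.37 ± 0.24 (adjusted p = 0.003) and Id2 higher by 0.98 ± 0.22 (adjusted p = 0.017). Among the other pathway genes, Bmp8a was lower by -0.62 ± 0.11 (adjusted p = 0.0037) and Acvr1 higher by 0.52 ± 0.11 (adjusted p = 0.0098). The neighbour of Id3, E2f2, was lower by -0.40 ± 0.11 (adjusted p = 0.042). Groups of 2 libraries allow no check for an outlying library.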

How the results depend on the processing

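DESeq2 and RLE factors changed no call among the 6 genes. Replicate numbers were shared between groups, but the labels do not say that they mark a batch, and the difference between replicates correlated between groups at r of 0.054 to 0.66 (median 0.4 over 10 pairs of groups). With the replicate block, 1 of the 6 genes differed between 6 and 2 hpd in place of 0, and Id3 was called at 6 hpd (-0.56, adjusted p = 0.015). The block called 6, 9 and 11 pathway genes at 1, 2 and 6 hpd, and 3 neighbouring TUs at 0.5 hpd. It also raised the share of all TUs called, to 3.94%, 11.2%, 19.1% and 26.1% at 0.5, 1, 2 and 6 hpd. Fitting only the libraries compared gave 5 pathway genes at 1 hpd and 2 at 2 hpd, where it called 10.6% and 8.41% of all TUs. DESeq2 gave 1 pathway gene at 1 hpd (5.83% of all TUs) and 3 neighbouring TUs at 6 hpd (11.8%). A mean of at least 50 fragments, which dropped Bmp4, gave 3 neighbouring TUs at 1 hpd (8.78%). Total counts moved the median of all TUs to -0.056, -0.13, -0.16 and -0.13 at 0.5, 1, 2 and 6 hpd and turned Bmp4 to -0.08 at 2 hpd and -0.01 at 6 hpd. Leaving out 1 library at a time gave 0 to 3, 1 to 3, 2 to 3 and 2 to 3 of the 6 genes called at 0.5, 1, 2 and 6 hpd, 3 to 4 jointly, 0 to 2 for 6 against 1 hpd and 0 to 0 for successive times. It gave 0 to 1, 1 to 3, 1 to 9 and 3 to 10 pathway genes, and 0 to 1, 0 to 5, 1 to 5 and 1 to 8 neighbouring TUs. In the same fits the share of all TUs called moved too. It was lowest without NT replicate 2 at 0.5, 2 and 6 hpd, and highest at each time without a 2 hpd replicate. The counts of pathway genes and neighbouring TUs therefore have no fixed baseline across these fits. The direction turned for Id3 in these fits, from -0.36 to 0.84 at 0.5 hpd, -0.93 to 0.26 at 1 hpd, -0.82 to 0.38 at 2 hpd, -1.06 to 0.13 at 6 hpd and -0.38 to 0.17 for 6 against 1 hpd. It turned for Bmp4, from -0.05 to 0.81 at 1 hpd, -0.34 to 0.52 at 2 hpd, -0.28 to 0.58 at 6 hpd and -0.56 to 0.06 for 6 against 1 hpd. It also turned for Smad6 between 6 and 1 hpd (-0.12 to 0.06) and for Bmpr1a at 0.5 hpd (-0.08 to 0.19). Of these values, only that of Id3 at 6 hpd without NT replicate 1 was called. The causes were not tested. The counts of Bmp4, Id1 and Id2, 22 to 270 fragments per library, limit how small a change could be seen.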
